A study of Homo sapiens with 19 samples.

Results

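The wide H3.3 domains of mock-transfected U2OS cells were the peaks of the mock H3.3 list with a width of 1000 bp or more. They numbered 3231 of 79838 mock H3.3 peaks (4.05%) and held 4.73 of the 22.8 Mb that those peaks covered (20.8%). Width alone chose them, so width and the mock H3.3 signal itself are described here without a test. U2OS cells are a human line grown from an osteosarcoma. The groups were U2OS cells transfected with EP400 siRNA and U2OS cells transfected with mock siRNA directed against GFP, both harvested 72 hr later. Chromatin immunoprecipitation followed by sequencing (ChIP-seq) gave 1 peak list per condition for H3.3, RNA polymerase II (Pol II), the Mediator subunit MED26 and the histone variant H2AZ, and RNA sequencing gave 1 library per condition. The histone marks H3K18ac and H3K4me1 were mapped in mock cells alone. EP400 was mapped in 3 immunoprecipitations deposited as 1 list, whose titles name no siRNA. With 1 library per antibody and condition there was no replicate check, so no p-value is given, and each 95% interval (Wilson) covers counting error alone.

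H3.3 is a variant of histone H3 that is placed on DNA outside replication, by chaperones such as HIRA at active genes and regulatory elements and DAXX with ATRX at repeats and telomeres. EP400 is the ATP-driven remodeller in the TIP60-EP400 complex. Nucleosomes are replaced over the body of a transcribed gene as Pol II passes, so H3.3 can spread along highly transcribed genes as well as beside their promoters. H3K4me1 marks enhancers and the flanks of promoters, H3K18ac marks active promoters and enhancers, and MED26 is a Mediator subunit that takes part in the release of Pol II into elongation.

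Promoters of 6 genes that the results return to are shown as examples. In each, a wide domain covered the start of the gene's locus or had an edge within 1 kb of it. Other genes named below, among them DDAH2, PPIA and RPL38, met the same rule and are not shown. Each line holds the 150 bases that end just before the RefSeq transcript start, 5′ to 3′ on the gene's strand, from RefSeq GRCh38.p14. Capitals mark matches, on either strand, to 4 motifs. These are the TATA box, searched as TATAAA, the box read as CCAAT, the GC box, searched as GGGCGG, and the AP-1 site, searched as TGANTCA.
EDN2: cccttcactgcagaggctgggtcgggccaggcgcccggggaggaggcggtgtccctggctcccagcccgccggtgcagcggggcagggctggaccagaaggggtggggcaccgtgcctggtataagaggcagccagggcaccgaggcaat
LFNG: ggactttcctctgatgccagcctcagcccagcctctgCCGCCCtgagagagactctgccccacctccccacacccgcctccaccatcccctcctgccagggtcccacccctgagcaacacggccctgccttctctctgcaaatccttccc
TTYH3: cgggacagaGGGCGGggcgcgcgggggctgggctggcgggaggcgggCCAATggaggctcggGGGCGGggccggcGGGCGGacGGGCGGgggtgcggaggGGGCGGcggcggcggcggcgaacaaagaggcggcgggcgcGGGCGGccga
RPL7A: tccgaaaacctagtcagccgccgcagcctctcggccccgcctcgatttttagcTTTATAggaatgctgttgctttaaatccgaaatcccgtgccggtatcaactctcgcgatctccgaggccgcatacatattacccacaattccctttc
RPLP1: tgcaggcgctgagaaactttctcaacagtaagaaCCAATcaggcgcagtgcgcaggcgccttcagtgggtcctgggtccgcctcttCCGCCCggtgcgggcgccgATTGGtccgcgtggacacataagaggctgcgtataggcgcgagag
ISG20: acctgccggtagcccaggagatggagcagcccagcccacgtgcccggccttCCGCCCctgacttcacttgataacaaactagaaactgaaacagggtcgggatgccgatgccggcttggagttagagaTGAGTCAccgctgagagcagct
The stretches lie at chr1:41484684-41484833 (EDN2, minus strand), chr7:2512379-2512528 (LFNG), chr7:2631836-2631985 (TTYH3), chr9:133348068-133348217 (RPL7A), chr15:69452668-69452817 (RPLP1) and chr15:88638866-88639015 (ISG20), all but EDN2 on the plus strand. In the hg19 coordinates of the ChIP data, a wide domain covered the locus start of EDN2, which encodes an endothelin peptide, and of LFNG, a glycosyltransferase that modifies Notch receptors. The nearest wide domain began 298 bp downstream of the start of TTYH3, a membrane protein of the tweety family, and 432 bp downstream of the start of RPL7A, a ribosomal protein. It ended 259 bp upstream of the start of RPLP1, another ribosomal protein, and 239 bp upstream of the start of ISG20, an interferon-stimulated exonuclease. TTYH3 held 6 GC boxes and 1 CCAAT box, RPLP1 2 CCAAT boxes and 1 GC box, LFNG 1 GC box, RPL7A 1 TATA box, ISG20 1 GC box and 1 AP-1 site, and EDN2 none of the 4 motifs. Among 27305 RefSeq promoters, with 250 bases searched upstream of the start on both strands, 42.3% held the GC box, 33.04% the CCAAT box, 11.1% the TATA box and 6.60% the AP-1 site. Those shares come from a longer stretch than the 150 bases shown, so they are not a like background for the 6 genes. A match describes letters, not a bound site.

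Most wide domains were close to the minimum width. The median was 1200 bp, the quartiles were 1100 and 1600 bp, and the 90th percentile was 2100 bp. There were 1087 domains of 1500 bp or more, 446 of 2000 bp or more, 113 of 3000 bp or more and 15 of 5000 bp or more, and the widest had 10100 bp. The 703 domains of exactly 1000 bp were much like the 941 mock H3.3 peaks of 900 bp just outside the rule. An H3.3 peak after EP400 siRNA overlapped 22.0% and 21.6% of them, H3K4me1 44.4% and 41.0%, Pol II 43.7% and 41.0%, and EP400 8.39% and 6.59%, with the domains of 1000 bp given first in each pair. Width therefore grades across the threshold, and the domains are the upper tail of 1 distribution.

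Of the 20 widest domains 17 reached within 2 kb of a boundary of a locus. The share was 45.5% over all wide domains and 71.7% over those of 3000 bp or more. The remaining 3 of the 20 lay farther inside a locus. The widest covered 10100 bp inside the locus of FOSL2, a subunit of the AP-1 transcription factor (chr2:28621901-28632000, hg19). It held 7 H3K4me1, 5 Pol II, 3 MED26 and 2 H3K18ac peaks, with no EP400 peak. After EP400 siRNA 5 H3.3 peaks covered 500 bp of it (4.95%). The next, 9700 bp at LFNG (chr7:2559601-2569300), was covered by Pol II over 61.9% of its length after EP400 siRNA and 92.8% in mock cells, and it held 2 EP400 peaks. A domain of 7100 bp lay at KRT80, a keratin gene (chr12:52562801-52569900), and 1 of 5600 bp at ACTB, which encodes beta-actin (chr7:5563601-5569200, 3 EP400 peaks).

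Other domains among the widest 20 lay at genes of glycolysis, translation and protein folding. ENO1, a glycolytic enolase, had a domain of 6200 bp with no Pol II peak, and EIF1, a translation initiation factor, had 1 of 5900 bp with no Pol II peak either. PKM, the pyruvate kinase of glycolysis, had 5100 bp, PPIA, the gene of the protein-folding enzyme cyclophilin A, 5000 bp, and the neighbouring loci of RPL7A, SURF1 and MED22 shared 4900 bp. A domain of 6000 bp (chr6:159187501-159193500) lay inside the locus of EZR, which encodes the membrane-cytoskeleton linker ezrin, and within 2 kb of the end of the SYTL3 locus, a synaptotagmin-like gene. Another pair lay at loci without a symbol, at chr13:114617901-114624000 (6100 bp, 5 EP400 peaks) and chr6:31805301-31810100 (4800 bp). Of the 20, 18 held a Pol II peak, 15 an H3K4me1 peak, 15 a MED26 peak, 9 an H3K18ac peak and 9 an EP400 peak. Over all wide domains the shares, in that order, were 55.2%, 48.0%, 38.6%, 45.9% and 10.7%. Over domains of 3000 bp or more they were 86.7%, 61.1%, 77.0%, 49.6% and 33.6%. A wider region touches more peaks by its size alone. None of the 20 held an H2AZ peak (0 of 20, which allows a share of up to 15%), against 13.8% of all wide domains.

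Wide domains were concentrated near gene boundaries. A boundary here is the stretch within 2 kb of either side of a locus in the RNA table, so starts and ends of transcription count together. Of the wide domains 45.5% (1471, interval 43.8 to 47.2%) overlapped such a stretch, against 25.4% of the 76607 narrower mock H3.3 peaks and 26.3% of all mock H3.3 peaks. A further 34.6% of wide domains lay inside a locus away from its boundaries and 19.9% outside all loci, against 47.7% and 26.8% of narrower peaks. A wider region touches more by its size alone. Taken by its central base, which width cannot raise, 38.7% of wide domains and 24.5% of narrower peaks lay at a boundary.

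Along genes with a known strand, wide domains flanked starts without covering them and ran over the end of transcription. In 6025 analysed genes that were alone at a locus of 4 kb or longer, a wide domain covered the start of 26 and the end of transcription of 193. It came within 2 kb of the start in 419 genes (6.95%), within 2 kb of the end of transcription in 405 (6.72%) and within 2 kb of both in 103. At the start itself 0.432% of genes had a wide domain, against 3.04% at 1 kb upstream and 2.27% at 1 kb downstream. Narrower peaks had the same gap, with 1.46% at the start, 10.1% at 1 kb upstream and 10.3% at 1 kb downstream, so the gap is not particular to wide domains. Pol II peaks filled it, covering 72.3% of starts after EP400 siRNA and 86.2% in mock cells. Around the end of transcription wide domains were at 3.20% there, 3.35% at 500 bp beyond it and 0.830% and 1.24% at 5 kb before and after it. Narrower peaks stood at 3.95% and 4.02%, with 3.17% and 3.72% at 5 kb before and after. The highest value around the end of transcription was 3.40% for wide domains, at 200 bp beyond it, and 5.28% for narrower peaks, at 1300 bp beyond it.

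**Figure D1:**
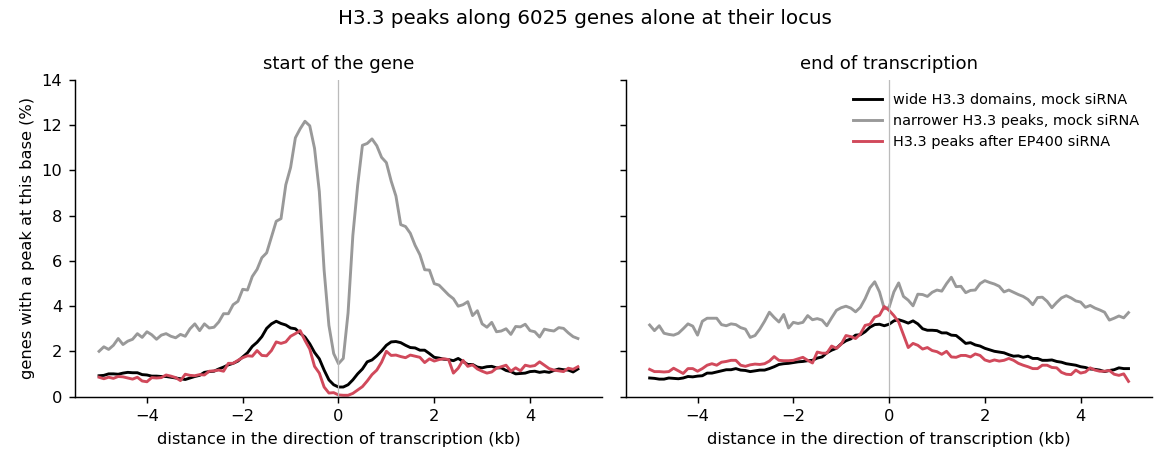
The share of 6025 genes (y axis, percent) with a mock wide H3.3 domain (black), a mock narrower H3.3 peak (grey) or an H3.3 peak after EP400 siRNA (red) at each base from 5 kb before to 5 kb after the start (left) and the end of transcription (right). All 3 lines dip at the start, where wide domains are at 0.432%, and the black and red lines are high at the end of transcription, at 3.20% and 3.82%.

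The level of RNA separated these places. Ranked by mock FPKM (fragments per kilobase of transcript, scaled to the mapped fragments of the library) in 5 equal groups of 1205 genes, the lowest group had a wide domain within 2 kb of the start in 1.33% and within 2 kb of the end of transcription in 0.664%. In the highest group the shares were 16.3% (14.4 to 18.5%) at the start and 21.9% (19.7 to 24.3%) at the end of transcription. The order of the places thus turned round: starts had the higher share in the lower 4 groups, and ends of transcription in the highest. Among the lower 4, the intervals were apart in group 3 alone, at 4.92 to 7.64% for starts and 2.38 to 4.39% for ends of transcription.

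In mock cells wide domains carried every mark more often than narrower peaks by overlap of at least 1 bp. H3K18ac overlapped 45.9% of wide domains and 22.0% of narrower peaks, where 23% of all mock H3.3 peaks had it. H3K4me1 overlapped 48.0% and 15.5% (16.8% of all), Pol II 55.2% and 13.3% (15% of all), and MED26 38.6% and 8.65% (9.86% of all). H2AZ overlapped 13.8% and 7.45% (7.7% of all), and EP400 overlapped 345 wide domains, or 10.7% (9.66 to 11.8%), and 1.92% of narrower peaks (2.27% of all).

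By the central base the contrast was smaller, and for H2AZ it was the other way round. H3K18ac covered the centre of 22.1% of wide domains and 19.3% of narrower peaks, H3K4me1 18.8% and 11.8%, Pol II 18.6% and 9.62%, and MED26 7.09% and 5.45%. H2AZ covered the centre of 1.80% (1.39 to 2.31%) of wide domains and 5.31% (5.15 to 5.47%) of narrower peaks. EP400 did not differ beyond its counting error, with 0.588% and 0.603%. With 50% or more of the peak covered, MED26, H2AZ and EP400 were the other way round: MED26 reached 3.75% of wide domains and 5.63% of narrower peaks, H2AZ 1.11% and 5.66%, and EP400 0.031% and 0.632%. H3K18ac, at 22.7% and 19.7%, H3K4me1, at 16.1% and 12.1%, and Pol II, at 16.1% and 9.995%, kept their order. A wide domain needs longer peaks to reach 50% than a narrower peak does. Mock MED26 and H2AZ peaks had a median width of 200 bp, and EP400 peaks 50 bp. The width rule thus sets part of the reversal for MED26, H2AZ and EP400 on this measure. Over bases, H2AZ peaks covered 2.46% of the wide domains and 5.43% of the narrower peaks, the lowest share of the 5 mock lists in both. Wide domains thus held less H2AZ inside than narrower peaks did, although more of them touched an H2AZ peak.

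Pol II, MED26, H2AZ and EP400 stood beside the domains rather than in their middle. Pol II covered 24.8% of the positions 1200 bp from the centre, averaged over both sides, and 18.6% of the centres. MED26 stood at 12.7% at 1200 bp and 7.09% at the centre, H2AZ at 5.66% at 1300 bp and 1.80% at the centre, and EP400 at 1.35% at 1400 bp and 0.588% at the centre. H3K4me1 had the opposite shape, with 19.2% at 200 bp, 18.8% at the centre and 8.96% at 1000 bp. Of the 395 EP400 peaks that touched a wide domain, 42.0% had their centre either in the outer 200 bp of the domain or beyond its edge. The outer 200 bp on each side make up 22.4% of the length of the domains concerned. Centres beyond an edge lie outside that length, so the 42.0% and the 22.4% are not like for like.

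**Figure D2:**
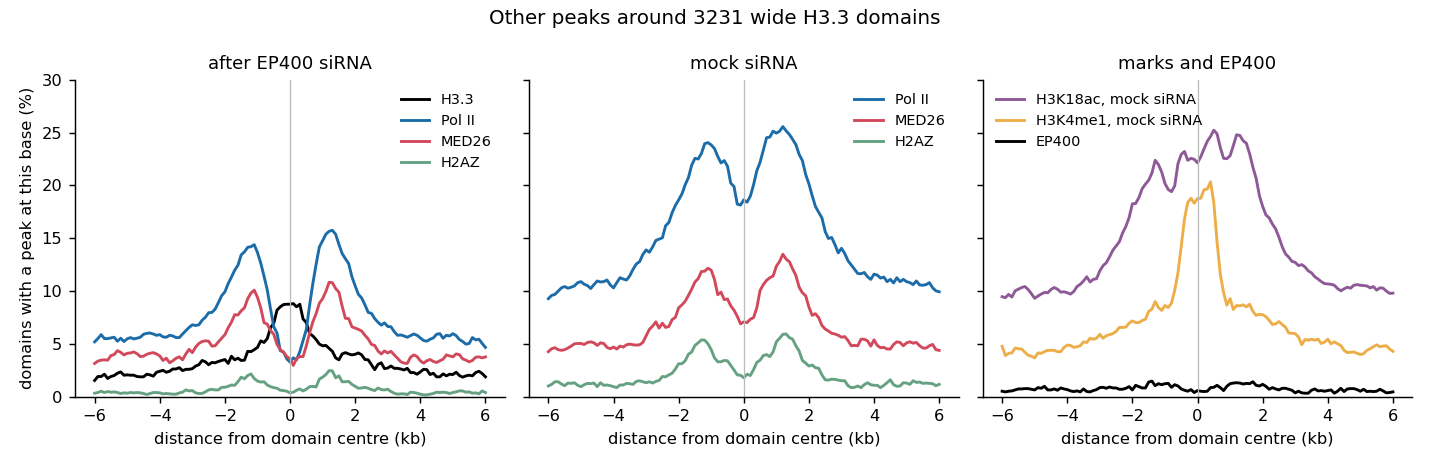
The share of 3231 wide H3.3 domains (y axis, percent) with a peak at each base from 6 kb before to 6 kb after the domain centre (x axis, kb), for the lists after EP400 siRNA (left), for Pol II, MED26 and H2AZ after mock siRNA (middle) and for H3K18ac, H3K4me1 and EP400 (right). Pol II dips at the centre, to 3.28% after EP400 siRNA and 18.6% in mock cells, while H3.3 after EP400 siRNA and H3K4me1 are high there.

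The marks divided the domains into groups that differed in what else they held. Both H3K18ac and H3K4me1 were present at 1102 domains (34.1%), of which 776 lay away from gene boundaries (24.02%, against 9.71% of narrower peaks). Of all mock H3.3 peaks 11.8% had both marks. H3K4me1 alone was present at 449 wide domains (13.9%, against 5.02% of all mock H3.3 peaks). H3K18ac alone was present at 381 (11.8%, near the 11.2% of all), and neither mark at 1299 (40.2%, against 72.0% of all). The domains with H3K18ac alone had the highest shares of Pol II (80.6%), MED26 (63.3%), H2AZ (32.3%) and EP400 (21.8%). Those with neither mark had the lowest, with Pol II at 45.8%, MED26 at 20.2%, H2AZ at 3.93% and EP400 at 4.77%. Narrower peaks had the same highest and lowest groups for these lists, so that is not particular to wide domains. Among narrower peaks with H3K18ac alone, Pol II was at 41.4% and EP400 at 6.69%. Among those with neither mark they were at 8.14% and 0.856%. None of the 6 other lists reached 594 wide domains (18.4%), against 64.4% of narrower peaks. All 6 reached 34 wide domains (1.05%, against 0.0839% of all mock H3.3 peaks).

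Place sorted the marks as well. Outside all loci 66.8% of the 642 wide domains had H3K18ac and 64.6% had H3K4me1, against 38.0% and 38.5% of the 1471 at boundaries. Pol II ran the other way, at 39.7% of domains outside loci, 45.5% inside loci and 69.4% at boundaries. H2AZ was present at 21.8% of domains outside loci, 7.87% inside loci and 14.8% at boundaries. Outside loci and at boundaries, narrower peaks had H3K18ac in 31.7% and 20.7%, H3K4me1 in 22.7% and 9.25%, and Pol II in 7.34% and 30.1%. That sorting is thus not particular to wide domains. H2AZ differed, as narrower peaks had it in 8.31% outside loci and 14.7% at boundaries. Domains over the end of transcription of a gene (187) had H3K18ac in 22.5% and H2AZ in 9.09%, while 369 domains within 2 kb of a start but not of an end had them in 56.1% and 18.97%.

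After EP400 siRNA fewer wide domains held Pol II, MED26 or H2AZ. Pol II overlapped 22.7% after EP400 siRNA and 55.2% in mock cells, where 5.61% of all mock H3.3 peaks held it after EP400 siRNA. MED26 overlapped 25.9% and 38.6% (5.24% of all after EP400 siRNA), and H2AZ 3.65% and 13.8% (2.33% of all). All 3 lists were shorter after EP400 siRNA, by an amount that differed between them: the covered bases were 61.5% of the mock bases for Pol II, 78.0% for MED26 and 37.5% for H2AZ. Inside the wide domains the same ratios were 26.2%, 54.6% and 23.6%, and inside the narrower peaks 32.3%, 46.7% and 27.6%. In covered length inside the wide domains, that is 0.273 Mb after EP400 siRNA and 1.04 Mb in mock cells for Pol II, 0.223 and 0.408 Mb for MED26, and 0.0275 and 0.116 Mb for H2AZ. All 3 ratios were lower under mock H3.3 peaks of either width than over the whole list. Wide domains had the lower ratio for Pol II and H2AZ, and narrower peaks for MED26. The depth of the libraries is unknown, and its part in these ratios was not tested.

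The position of Pol II around the domains also differed between the conditions. At the domain centre Pol II stood at 3.28% after EP400 siRNA and 18.6% in mock cells. At its maximum beside the domain, 1300 bp from the centre after EP400 siRNA and 1200 bp in mock cells, it stood at 14.9% and 24.8%. The dip at the centre was therefore deeper after EP400 siRNA. Narrower peaks had a deeper dip as well, so it is not particular to wide domains. There Pol II stood at 3.28% at the centre and 6.25% at 800 bp before it after EP400 siRNA, against 9.62% and 10.4% in mock cells. At wide domains MED26 had the same form as Pol II, with 3.59% and 7.09% at the centre and 10.3% and 12.7% at 1200 bp. At 6 kb from the centre of wide domains Pol II stood at 4.94% after EP400 siRNA and 9.61% in mock cells.

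A minority of wide domains still held H3.3 after EP400 siRNA, and most of their length did not. An H3.3 peak after EP400 siRNA overlapped 1146 of the 3231 wide domains (35.5%, 33.8 to 37.1%), called retained here, and 3.73% of narrower peaks, or 5.01% of all mock H3.3 peaks. Those peaks covered 8.99% of the bases of the wide domains and 2.60% of the bases of the narrower peaks. In a retained domain the median length covered was 200 bp, or 16.1% of the domain, 847 of the 1146 held a single peak, and 105 were covered over 50% or more. The list after EP400 siRNA had 41439 H3.3 peaks with a median width of 100 bp, against 79838 with a median of 200 bp in the mock list. It held 595 peaks of 1000 bp or more, of which 75 (12.6%) overlapped a wide domain of mock cells, and those reached 74 of the 3231 mock domains (2.29%). Wide H3.3 regions of EP400 siRNA cells thus lay mostly elsewhere. Since the domains were chosen by their mock signal, a lower value in the other list is partly set by that choice.

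Retention graded with width. It was 22.0% for domains of 1000 bp, 29.9% for 1100 to 1400 bp, 41.5% for 1500 to 1900 bp, 58.6% for 2000 to 2900 bp and 87.6% for 3000 bp or more. By the central base it was 7.68%, 7.01%, 9.36%, 10.8% and 28.3%. Only the domains of 3000 bp or more stood well apart on that measure.

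**Figure D3:**
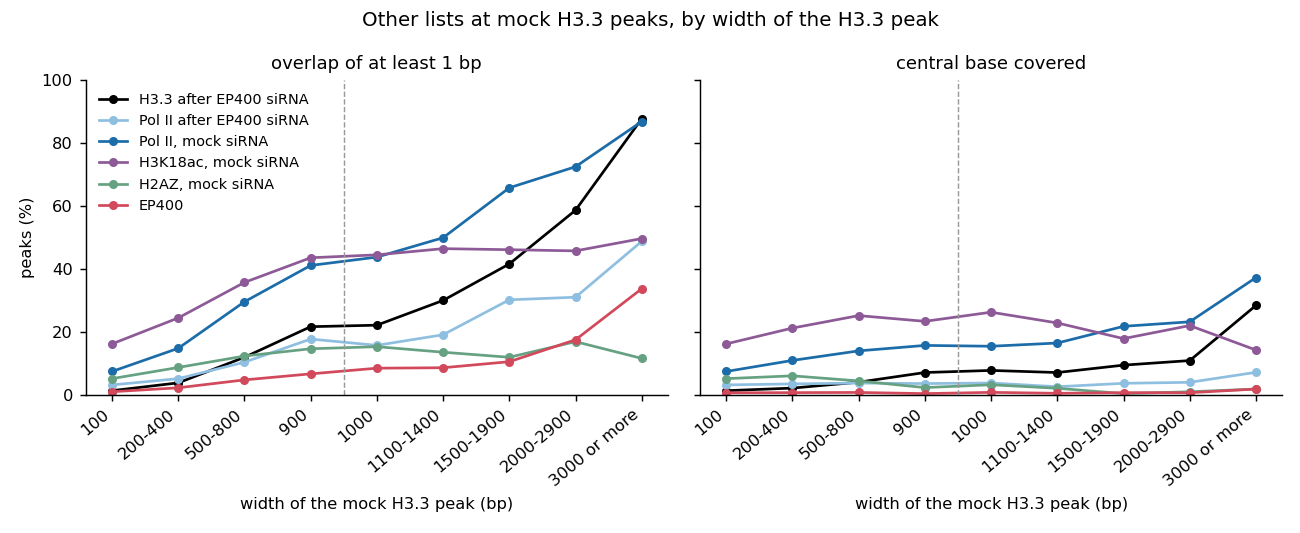
The share of mock H3.3 peaks (y axis, percent) that another list overlaps by at least 1 bp (left) or at the central base (right), by width of the H3.3 peak in bp (x axis). The dashed line marks the 1000 bp rule. H3.3 after EP400 siRNA climbs with width to 87.6% at 3000 bp or more on the left and to 28.3% on the right, and H2AZ is at 1.77% there.

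Retention differed by EP400 and by position along the gene, and hardly by Pol II. Of the 345 domains with an EP400 peak 49.6% (44.3 to 54.8%) were retained, against 33.8% (32.1 to 35.5%) of the 2886 without. Domains with EP400 were wider (median 1400 against 1200 bp), and within width classes the shares with and without EP400 were 38.5% and 24.2% at 1000 to 1200 bp, 39.5% and 38.1% at 1300 to 1900 bp, and 77.1% and 62.9% at 2000 bp or more. The difference was therefore almost absent in the middle class. With and without Pol II retention was 35.4% and 35.5%. Of the 187 domains over an end of transcription 55.6% (48.5 to 62.6%) were retained, at a median width of 1600 bp. Of the 369 within 2 kb of a start but not of an end of transcription 27.1% (22.8 to 31.9%) were retained, at a median width of 1200 bp. The 372 near an end of transcription but not a start lay between, at 43.3% and 1400 bp.

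The 5 domains with the most bases under H3.3 peaks after EP400 siRNA lay at genes of noncoding RNA, translation and protein folding, and they are named here after their values were seen. At MALAT1, a nuclear long noncoding RNA, 3100 of 3700 bp (83.8%) of a domain were covered after EP400 siRNA. At RPS12, a ribosomal protein gene, 2700 of 3000 bp (90%) were covered. PPIA kept 3100 of 5000 bp (62.0%), EIF1 3000 of 5900 bp (50.8%), and the domain shared by RPL38, TTYH2 and MGC16275 kept 2600 of 5600 bp (46.4%). Of the 20 widest domains 19 held an H3.3 peak after EP400 siRNA, against 87.6% of the domains of 3000 bp or more. The exception was TTYH3, whose domain of 5000 bp (chr7:2671901-2676900) was covered by Pol II over 24% of its length after EP400 siRNA and 64.0% in mock cells.

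Wide domains were unevenly spread over the chromosomes. Chromosome 17 had 467 (14.5% of the domains, against 9.08% of all mock H3.3 peaks). Chromosome 19 had 312 (9.66% against 7.74%), chromosome 7 had 267 (8.26% against 5.15%) and chromosome 22 had 225 (6.96% against 5.03%). Chromosome 16 had 233 and was near its share of all mock H3.3 peaks (7.21% against 6.75%). Per 100 mock H3.3 peaks there were 6.49 wide domains on chromosome 7 and 6.44 on chromosome 17, but 1.33 on chromosome 4, 1.44 on chromosome 18 and 1.82 on chromosome X. The domains also clustered: the median gap to the nearest wide domain was 12300 bp, 47.0% had another within 10 kb, and 94 windows of 1 Mb held 50% of them. The densest window was chr17:79000001-80000000 with 58 domains and 40 loci, followed by chr7:2000001-3000000 with 55 domains and 14 loci and chr7:1000001-2000000 with 50 domains and 13 loci. The window chr7:2000001-3000000 held the widest domains of LFNG, TTYH3 and AMZ1.

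Retention by chromosome ranged from 23.3% (16.7 to 31.7%) on chromosome 20 to 55.6% (39.6 to 70.5%, 20 of 36 domains) on chromosome 21. Chromosome 7 retained 47.2% (41.3 to 53.2%), chromosome 6 47.3% and chromosome 17 33.2%. The 2 H3.3 lists differed in their spread over chromosomes, with 0.115 peaks after EP400 siRNA per mock peak on chromosome 19, 0.167 on chromosome 20 and 1.73 on chromosome 4. Retention did not follow that ratio closely, since chromosome 19 retained 35.6% and chromosome 4 31.6% (6 of 19). The part of this imbalance in the retained shares was not tested.

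**Figure D4:**
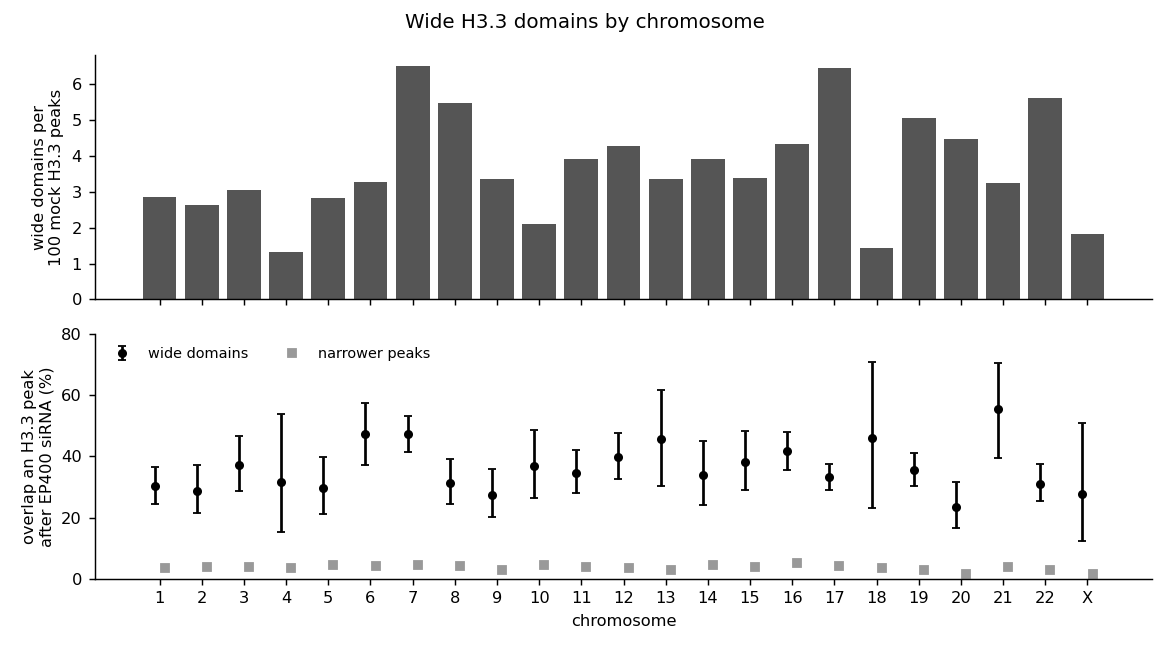
Wide domains per 100 mock H3.3 peaks (top) and the share of wide domains (black, bars are 95% Wilson intervals) and of narrower peaks (grey) that overlap an H3.3 peak after EP400 siRNA (bottom, percent), by chromosome. Chromosomes 7 and 17 have the highest density, at 6.49 and 6.44, and on every chromosome shown the wide domains lie above the narrower peaks.

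Genes with a wide domain at a boundary were highly expressed. Of 11673 genes with a mean of at least 1 FPKM over both libraries, 1630 had one (14%). Their median level was 17.5 FPKM after EP400 siRNA and 37.2 FPKM in mock cells, while that of the other 10043 genes was 5.96 FPKM after EP400 siRNA and 6.03 FPKM in mock cells. Across 10 equal groups of genes by mock FPKM the share with a wide domain was 2.05% in the lowest group and 37.3% in the highest. The share with a narrower peak and no wide domain had no such course, at 40.3% in the lowest group and 47.9% in the highest, with its maximum of 59.4% between them. The locus can hold several genes, and 503 of the 1630 shared theirs with another gene.

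The highest mock levels among genes with a wide domain included genes of translation, glycolysis and the cytoskeleton. RPLP1, a stalk protein of the ribosome, had 5888 FPKM after EP400 siRNA (limits 0 to 18219) and 15291 FPKM in mock cells (0 to 43255). The limits of a gene are the authors' limits summed over its transcript rows, so they are not confidence limits of the summed FPKM. GAPDH, a glycolytic dehydrogenase with 3 wide domains, had 5541 FPKM after EP400 siRNA and 12383 FPKM in mock cells. ACTB had 3348 FPKM after EP400 siRNA and 8214 FPKM in mock cells. In all 3 the EP400 siRNA level was under 50% of the mock level as deposited, and the summed limits overlapped widely. With TPM none of the 3 passed 2-fold, with log2 ratios of -0.60 for RPLP1, -0.39 for GAPDH and -0.52 for ACTB. LGALS1, a galectin gene, RPL8 and MIF, a cytokine gene, were among the 10 highest as well.

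Genes with a wide domain had lower ratios of EP400 siRNA over mock RNA than other genes. The log2 ratio, taken after adding 1 FPKM to both the EP400 siRNA and the mock level, had a median of -0.99 over the 1630 genes (quartiles -1.35 and -0.42) and -0.07 over the other genes, with -0.20 over all genes. At least 2-fold lower were 802 (49.2%, 46.8 to 51.6%), against 22.9% of all genes tested, and at least 2-fold higher were 28 (1.72%), against 6.11%. The limits of the libraries, summed per gene from the authors' transcript limits, were apart for 2 of the 802 and for none of the 28. Such sums are not confidence limits of a gene, so these counts are no measure of its uncertainty. A wide domain inside the locus alone (553 genes) went with a median of -0.66, a narrower peak at a boundary (6089) with -0.22 and no H3.3 peak at a boundary (3401) with 0.20.

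The size of that offset depends on how the libraries are scaled. The deposited FPKM of rows of 200 nt or more summed to 366796 after EP400 siRNA and 626424 in mock cells. Rescaled to equal sums, which turns FPKM into TPM (transcript shares scaled to a fixed sum), the median of all genes was 0.48, that of the genes with a wide domain was -0.29, and 206 genes with a wide domain passed 2-fold downwards and 168 upwards, against 5.97% and 31.5% of all genes. The distance between the genes with a wide domain and all genes was -0.77 with TPM and -0.79 as deposited. Rescaling multiplies each library by a constant, so this distance could move only through the added 1 FPKM. Its small change is therefore no check of the scaling.

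Level and gene density moved with this result. Within 5 equal groups by mean FPKM the genes with a wide domain differed from the others by -0.82, -1.02, -0.91, -0.67 and -0.22 in median log2 ratio, from low to high FPKM, so the distance was smallest among the most expressed genes. Genes with a wide domain had a median of 25 loci within 500 kb and other genes 12. Within 5 groups by that density the differences were -0.36, -0.45, -0.71, -0.39 and -0.25. By chromosome the difference was -0.19 on chromosome 19 and -1.47 on chromosome 8, the extremes over 21 chromosomes with 10 or more such genes. The part of level and density in the remaining distance was not tested.

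Genes with a wide domain had close medians whether or not it was retained or held EP400. The median log2 ratio was -0.97 where the domain was retained (717 genes) and -0.99 where it was not (913), and it was -0.99 both with EP400 (265) and without (1365). The number of wide domains in or beside a gene added little after the first: the median was -0.04 with 0, -0.87 with 1, -1.03 with 2, -1.03 with 3 or 4 and -0.97 with 5 or more. By place, it was -1.01 where the domain was near the start alone (316 genes), -0.85 near the end of transcription alone (302), -1.07 near both (103) and 0.05 near neither (5304).

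**Figure D5:**
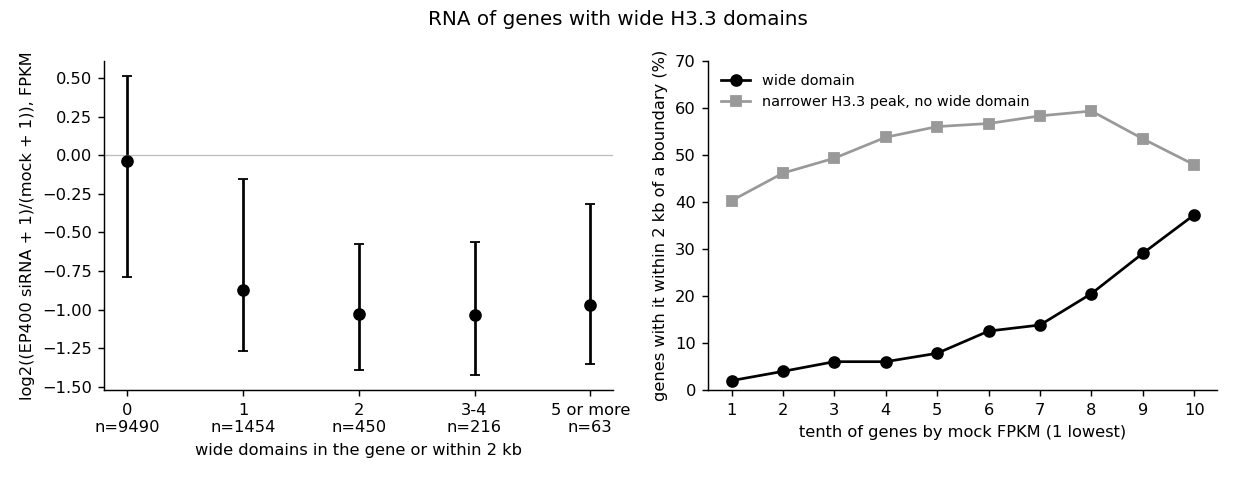
Left, the median log2 ratio of EP400 siRNA over mock RNA (points) with its quartiles (bars) by the number of wide domains in a gene or within 2 kb of it, with n genes. Right, the percent of genes with a wide domain (black) or with a narrower H3.3 peak and no wide domain (grey) within 2 kb of a boundary, by group of mock FPKM (10 equal groups). The median is -0.04 without a wide domain and between -0.87 and -1.03 with any number, and the black line is at 37.3% in the highest group.

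The lowest ratios among genes with a wide domain, at a mean of 5 FPKM or more, were at EDN2, DDAH2, MXD3, KREMEN2, DBNDD1, GPER1, NHSL3 and FOXO6. EDN2 had 0.768 FPKM after EP400 siRNA (limits 0.0573 to 1.48) and 44.0 FPKM in mock cells (5.06 to 83.0), a log2 ratio of -4.67, and its limits did not overlap. Its start lies under a domain of 1800 bp, all of it within H3K18ac, of which H3.3 covered 11.1% after EP400 siRNA. DDAH2, a hydrolase of methylated arginines, had 8.76 FPKM after EP400 siRNA and 127 FPKM in mock cells (-3.72). MXD3, a member of the MYC and MAX network, was at -3.27 and KREMEN2, a receptor in Wnt signalling, at -3.14, and all 8 ratios stayed below -1 with TPM.

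The highest ratios were at SYTL3, PLAU, PCDH7, DUSP5, TGFBI, PTP4A2, MALAT1 and ISG20. SYTL3, the neighbour of EZR, had 67.0 FPKM after EP400 siRNA (limits 0 to 188) and 11.6 FPKM in mock cells (0 to 46.6), a log2 ratio of 2.43. PLAU, the urokinase gene, had 166 and 38.4 FPKM (2.08), DUSP5, a phosphatase of MAP kinases, 32.8 and 9.02 FPKM (1.75), TGFBI, a matrix protein, 151 and 46.0 FPKM (1.69), and ISG20 37.8 and 13.9 FPKM (1.38), with the EP400 siRNA level first in each pair. Of these 8 genes SYTL3 and MALAT1 had a retained domain, and PLAU and MALAT1 had a domain with EP400. The summed limits overlapped in all 8.

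Some loci held many separate wide domains. SEPTIN9, a septin of the cytoskeleton, had 15, PMEPA1, an inhibitor of TGF-beta signalling, had 12, and MAD1L1, a mitotic checkpoint gene, had 11. ANXA2, PLEC, AATK and BAIAP2 had 10 each, AATK and BAIAP2 sharing a locus. SEPTIN9 had 95.2 FPKM after EP400 siRNA and 208 FPKM in mock cells (-1.12, and -0.35 with TPM), and PMEPA1 36.3 and 40.8 FPKM (-0.17, and 0.60 with TPM).

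Among 20 gene lists, chosen with earlier results of these data known, wide domains were most frequent at the ribosomal proteins and nuclear noncoding RNAs. Of 33 cytosolic ribosomal protein genes 26 had a wide domain at a boundary, against 14% of all genes tested and 37.3% of the most expressed of 10 equal groups. Of those 26, 23 were retained, against 44.0% of the 1630 genes with a wide domain, and 8 had an EP400 peak in the domain, against 16.3%. As deposited, where 49.2% of the 1630 did so, 16 passed 2-fold downwards after EP400 siRNA and none upwards, with a median log2 ratio of -1.14. With TPM none passed downwards and 1 upwards, and the median was -0.37, so this count rests on the scaling. Ribosomal protein genes have many near-identical copies, and how reads that match several places were counted is not given in the sources used here, so their FPKM are uncertain. Of 7 nuclear long noncoding RNAs measured, 6 had a wide domain, namely GAS5, NEAT1, SNHG1, PVT1, MALAT1 and MIR22HG. MALAT1 was at least 2-fold higher after EP400 siRNA, with 10.1 FPKM against 3.24 FPKM in mock cells, and the median of the 6 was 0.52 (1.29 with TPM, where 5 passed 2-fold upwards).

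Smaller shares appeared in the lists of regulated genes. AP-1 and immediate-early genes had a wide domain in 6 of 15 (IER3, DUSP1, FOSL1, FOSL2, MYC and EGR1), and 5 of the 6 had an EP400 peak in it, against 16.3% of all genes with a wide domain. FOSL1 had 139 FPKM after EP400 siRNA and 73.3 FPKM in mock cells (0.92), and DUSP1 46.2 and 74.6 FPKM (-0.68, and 0.08 with TPM). The median of the 6 was 0.58, and 1.35 with TPM. Actin, adhesion and contractile genes had one in 8 of 25, DNA replication genes in 7 of 22 (among them TK1, MCM7 and POLD1), collagen and matrix genes in 4 of 18, p53 targets in 4 of 14, and H3.3 genes and chaperones in 4 of 12 (H3-3B, ASF1B, DAXX and UBN1). COL1A1, a chain of the collagen of bone, had 60.8 FPKM after EP400 siRNA and 376 FPKM in mock cells (-2.61, and -1.85 with TPM).

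Other lists were near or under the 14% of all genes tested. Oxidative phosphorylation genes, with a median mock level of 365 FPKM, had a wide domain in 2 of 21 (9.52%), mitosis genes in 1 of 19, interferon response genes in 1 of 18, HOX genes in 1 of 14, and replication-dependent histone genes in 0 of 11. The single chromosome 19 zinc finger gene that passed the filter had none. The remaining lists, namely YAP and TGF-beta targets, chemokines and cytokines, the unfolded protein and ATF4 response, heat shock proteins, osteoblast and BMP genes and the TIP60-EP400 complex, had 2 each, or between 12.5% and 16.7%.

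As checks, EP400, the siRNA target, had 2.28 FPKM after EP400 siRNA (limits 0.162 to 4.41) and 10.04 FPKM in mock cells (0.165 to 19.9). The 8 mesenchymal and osteoblast markers summed to 1530 FPKM after EP400 siRNA and 1447 FPKM in mock cells, with 6 and 7 of them at 1 FPKM or more. VIM, a filament gene, made up most of the sum after EP400 siRNA, at 1132 FPKM against 618 FPKM in mock cells. FN1 was higher after EP400 siRNA as well, at 79.7 FPKM against 23.4 FPKM. COL1A1, THY1, SPARC and RUNX2 were lower after EP400 siRNA, CDH2 was level, and COL1A2 was near 0 in both. The 5 epithelial markers summed to 127 FPKM after EP400 siRNA and 440 FPKM in mock cells, mostly KRT8 (115 and 369 FPKM), with EPCAM and CDH1 under 1 FPKM. The 3 neuron markers summed to 82.4 FPKM after EP400 siRNA and 190 FPKM in mock cells, mostly TUBB3 (66.3 and 186 FPKM). SYP (14.9 and 3.55 FPKM) and SNAP25 (1.29 and 0.92 FPKM) went the other way and were higher after EP400 siRNA. The blood, endothelial and muscle lists each summed to under 1 FPKM in both libraries. The part of these differences in the results was not tested.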

How the data were processed

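Per the submitters' processing notes, reads were handled with Bowtie 0.12.9, TopHat2 2.0.8 and Cuffdiff 2.0.2 on hg19. The peak lists deposited by the authors give positions alone, 1 list per library and 1 for the 3 EP400 immunoprecipitations, in steps of 100 bp (EP400 50 bp). No source used here states how or against what control peaks were called, and the input libraries were not analysed here. RNA levels are FPKM values with confidence limits, as deposited by the authors, and their depth is unknown.

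Overlaps of at least 1 bp, central bases and covered bases were computed with Python 3.11.15, pandas 2.3.3, numpy 2.4.6 and scipy 1.17.1, drawn with matplotlib 3.10.9, and tested on simulated data. FPKM, and likewise the authors' lower and upper limits, were summed per gene over rows of 200 nt or more. A summed limit is not a confidence limit of the summed FPKM. Symbols came from a RefSeq table of GRCh38.p14, used for names and strands, which matched 47551 of 48669 rows (97.7%). Of 24234 genes, 122 were dropped for a failed FPKM estimate, and 11673 with a mean of 1 FPKM or more were compared with a pseudocount of 1. Of 20146 loci 2950 hold more than 1 gene. A call is a 2-fold difference, with no test. Promoter sets were not compared, since 1251 of 1630 genes (76.7%) had a sequence, under the 80% needed.

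The domains and gene lists were chosen with earlier results of these data known. Named genes are EP400, those at the 20 widest domains and at the 8 widest with EP400 or with H3.3 after EP400 siRNA, the 10 with the highest mock FPKM, the 8 highest and 8 lowest ratios at a mean of 5 FPKM or more, the 10 with the most domains, and up to 4 per list. Alternatives changed the minimum width, joining, overlap, boundary size, pseudocount, filter and scaling. A gene that this rule names is not reported here.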

Additional observations from a re-analysis of the deposited data

How the results depend on the processing

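Wide domains had the lower share, in place of the higher, for H2AZ and, within overlapping intervals, EP400 by the central base, and for H2AZ, MED26 and EP400 with 50% or more covered. Cover of 50% is harder to reach for a wider peak, so the width rule sets part of that last result. With TPM single genes and 4 list medians changed sign, and the median log2 ratio kept its sign under every alternative run. The share of domains at a boundary (45.5%) was 55.3% at a minimum width of 1500 bp, 60.3% at 2000 bp, 41.4% with peaks joined over gaps of 500 bp or less, 36.1% with boundaries of 1 kb and 58.3% with 5 kb. At 1500 and 2000 bp, Pol II was at 69.9% and 76.0%, H3K4me1 at 52.2% and 56.1%, MED26 at 49.2% and 58.3%, EP400 at 15.0% and 21.5%, and H3.3 after EP400 siRNA at 51.5% and 65.9%, with H2AZ at 15.5% at 2000 bp. With joining, Pol II was at 49.9%, H3K4me1 at 46.2%, MED26 at 36.2%, H2AZ at 17.6% and H3.3 after EP400 siRNA at 27.9%. By the central base, and then with 50% or more covered, H3K18ac was at 22.1% and 22.7%, H3K4me1 at 18.8% and 16.1%, Pol II at 18.6% and 16.1%, MED26 at 7.09% and 3.75%, H2AZ at 1.80% and 1.11%, and EP400 at 0.588% and 0.031%. On the same measures the lists after EP400 siRNA were at 8.76% and 3.25% for H3.3, 3.28% and 2.66% for Pol II, 3.59% and 1.21% for MED26, and 0.371% and 0.279% for H2AZ. H3.3 after EP400 siRNA was at 45.6% within 1 kb and 2.29% with peaks of 1000 bp or more alone.

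The share of genes at least 2-fold lower (49.2%) was 53.5% at 1500 bp, 53.8% at 2000 bp, 43.3% with joining, 54.7% and 52.0% with pseudocounts of 0.1 and 0.5, 41.3% with no filter, 53.02% at a mean FPKM of 5, 34.8% with median centring and 12.6% with TPM. The share at least 2-fold higher (1.72%) was 2.59% with joining, 2.58% with a pseudocount of 0.1, 3.50% with median centring, 10.3% with TPM and 4.19% over all rows. The median log2 ratio (-0.99) was -0.29 with TPM. The cause was not tested. No paired analysis was possible because there was 1 library per antibody and condition.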

Other observations

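The locus of EP400 itself had a wide domain of 1000 bp (chr12:132432901-132433900, hg19), 565 bp upstream of the start of the locus. None of the 6 other lists reached it, and an H3.3 peak after EP400 siRNA covered 400 bp (40%). H3-3B, which encodes H3.3, had a domain of 1600 bp (chr17:73770401-73772000) with 1 Pol II peak and no H3.3 peak after EP400 siRNA. NEAT1, a noncoding RNA of nuclear paraspeckles, had domains of 2600 and 2100 bp with 2 and 3 EP400 peaks, of which H3.3 covered 30.8% and 38.1% after EP400 siRNA.

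TTYH3 had 7 wide domains, and an H3.3 peak after EP400 siRNA reached 1 of them, over 100 bp. Its RNA was at 121 FPKM after EP400 siRNA (limits 0 to 245) and 405 FPKM in mock cells (0 to 869). The log2 ratio was -1.74 as deposited and -0.97 with TPM, which is under 2-fold. Across the genome 17.2% of wide domains had another within 1 kb, and joining mock peaks over gaps of 500 bp or less gave 7501 regions of 1000 bp or more, the widest of 14500 bp.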
